A study of Mus musculus with 6 samples.

Results

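The genes described here are the 10 components of the parathyroid hormone-related protein (PTHrP) and Indian hedgehog axis, the signalling loop that paces cartilage growth and bone formation in long bones. They were taken by symbol from the 23930 amplicons of the expression table: the ligand genes Pthlh and Ihh, the receptor gene Pth1r, the Hedgehog reception genes Ptch1, Smo, Gas1 and Hhip, and the transcription factor genes Gli1, Gli2 and Gli3. Each of the 10 matched 1 amplicon, a short stretch of the transcript that stands for the gene in a targeted sequencing panel. RNA came from the shaft of the humerus of mouse embryos at E16.5. The 3 controls are given as Stat3C/+, carry no driver and are called wild type in the labels. The 3 knockouts are Prrx1Cre; Stat3C/C, in which the Stat3C allele is read here as a conditional allele removed by Cre. Prrx1Cre is active in limb bud mesenchyme, which gives rise to cartilage, bone and connective tissue of the limb, whereas blood, vessel and muscle cells come from other sources. The driver is present in the knockouts alone, so its own effect and that of Stat3 loss cannot be told apart. The labels do not say whether replicates were separate embryos or pools, and p-values here measure the spread between samples only, technical or not.

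In the growth plate, PTHrP is made near the end of the bone and acts through PTH1R, a receptor coupled to cAMP, to keep chondrocytes dividing. Chondrocytes that leave that zone begin to make Indian hedgehog, which sustains PTHrP production and acts on the neighbouring perichondrium to start bone formation. Hedgehog ligands relieve the inhibition of Smoothened by Patched, and the GLI factors then carry the signal to target genes, among them Gli1, Ptch1 and Hhip themselves.

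Libraries held 9126493 to 13376550 reads, and 1 read was worth 0.0748 to 0.1096 RPM, or reads for each 1000000 reads. The panel reads 1 short target per gene, so RPM values are not compared between genes as transcript levels. Groups were compared with limma, a linear model fitted across all genes, and a gene is called higher or lower where its Benjamini-Hochberg adjusted p was under 0.05. Only the 12846 genes with a mean of at least 1 RPM were tested. TMM scaling, which resets library sizes from the bulk of genes, and the count tests edgeR and DESeq2 were run beside it. Positions given for genes are spans in GRCm38, and the exon an amplicon lies in is not known here. The Stat3 amplicon read 211, 201 and 211 RPM among controls and 208, 201 and 170.1 RPM among knockouts (log2 fold change -0.11 ± 0.08 SE, limma adjusted p = 0.380). No source used here says where this target lies relative to the deleted part, and its level is therefore no check of the labels. Skeletal markers were well detected. The 11 osteoblast markers summed to 41299 to 46095 RPM over controls and to 36578 to 41179 RPM over knockouts, mostly from Col1a1. Of these 11 markers 8 passed the test as lower, as did 7 of 11 chondrocyte and 5 of 7 hypertrophic cartilage markers. None of the 3 lists held a higher gene. Over all genes tested 11.0% were called lower and 5.71% higher. The chondrocyte count was 5 with TMM scaling and with edgeR and 4 with DESeq2, while the osteoblast and hypertrophic counts were 8 and 5 with each of them. The summed level went from between 536 and 556 to between 426 and 467 RPM for chondrocytes, and from between 5072 and 5693 to between 2720 and 2834 RPM for hypertrophic cartilage, a sum of RPM made up mostly of the Ibsp amplicon, which is also on the osteoblast list. Lower as well were 4 of 10 skeletal muscle markers, or 3 with TMM scaling (summed 27295 to 30642 against 24919 to 26682 RPM), and all 5 tested neutrophil markers (88.4 to 90.1 against 37.4 to 40.8 RPM). Elane and Mpo, also neutrophil genes, lay under the limit for testing. Perichondrium and fibroblast markers, kept as 1 list, had 1 of 8 higher and 2 lower, or 2 higher and 1 lower with TMM scaling (10082 to 11166 against 12520 to 12710 RPM). Macrophage and osteoclast markers had 3 of 9 higher and 2 lower (897 to 986 against 1236 to 1251 RPM). Mmp9, with means of 411 and 671 RPM, was the largest part of this last sum. Adgre1 and Cd68 were also higher, Csf1r and Calcr were lower, and the osteoclast genes Acp5 and Ctsk did not pass. Erythroid markers had 1 of 4 higher (69.6 to 81.5 against 82.1 to 90.4 RPM), endothelial markers 1 of 5 lower, or 1 lower and 1 higher with TMM scaling (632 to 680 against 635 to 675 RPM), and both tested epidermal markers were higher (3.87 to 4.85 against 13.04 to 16.8 RPM). The part of these shifts in the results below was not tested.

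The receptor gene Pth1r (chromosome 9, 110722085 to 110747145, minus strand, GRCm38) fell to 42.2% of its control level. Its amplicon was at 67.8, 52.6 and 63.2 RPM in the controls, and knockouts were at 29.4, 27.9 and 20.1 RPM, from 197 to 789 reads per library. Every knockout library lay below every control, and the lowest control was above the highest knockout by more than the spread within either group. Means were 61.2 ± 7.81 and 25.8 ± 4.98 RPM (SD, n = 3 each). On the log2(RPM + 1) scale, which slightly understates such changes, the difference was -1.22 ± 0.13 (SE, limma adjusted p = 6.47e-07). With 3 against 3, p = 0.1 is the smallest an exact permutation test can give (two-sided), and Pth1r reached it. Of all genes tested, 0.272% were called lower with a fall of at least 2-fold, and Pth1r ranked 23 by size among the 1409 called lower. It passed in each of 18 alternative settings, with log2 fold changes from -1.33 to -0.99. In whole tissue, fewer cells that express a gene and less RNA per cell cannot be told apart.

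RefSeq (GRCm38.p6) lists several start sites for Pth1r, and the amplicon does not tell which of them gave the reads. The 250 bases upstream of 2 of these starts are shown because Pth1r is the member with the greatest change, and the upstream stretch of Hhip because it held the sole motif match among the members. Each is written 5′ to 3′ on the gene's strand, and capitals mark a match to the cAMP response element.
Pth1r, distal start, chr9:110747146-110747395, minus strand: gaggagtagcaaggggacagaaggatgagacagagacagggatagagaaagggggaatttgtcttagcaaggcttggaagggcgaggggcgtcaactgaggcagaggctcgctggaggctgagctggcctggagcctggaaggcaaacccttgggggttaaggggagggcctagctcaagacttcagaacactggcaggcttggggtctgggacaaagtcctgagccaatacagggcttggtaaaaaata
Pth1r, middle start, chr9:110743687-110743936, minus strand: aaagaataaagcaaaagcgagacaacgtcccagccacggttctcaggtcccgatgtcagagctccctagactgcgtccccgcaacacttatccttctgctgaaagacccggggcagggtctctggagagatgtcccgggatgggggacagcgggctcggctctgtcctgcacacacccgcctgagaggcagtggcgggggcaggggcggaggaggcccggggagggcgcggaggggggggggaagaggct
Hhip, chr8:80058009-80058258, minus strand: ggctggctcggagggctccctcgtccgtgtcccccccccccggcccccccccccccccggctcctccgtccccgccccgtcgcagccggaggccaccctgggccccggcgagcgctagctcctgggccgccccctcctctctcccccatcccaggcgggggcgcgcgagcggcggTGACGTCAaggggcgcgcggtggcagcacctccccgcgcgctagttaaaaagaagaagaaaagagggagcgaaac
The distal Pth1r stretch had 56.0% G and C and 3 CpG pairs, whereas the middle one had 65.6% and 16. The proximal stretch, which is not shown, had 70.4% and 22. Over all 32851 stretches of this length in the table the medians were 52.4% and 6. Promoters were matched for 9 of the 10 members, all except Gli1, in 11 stretches. The following motifs were searched on both strands. The letters of the GLI motif, GACCACCCA, were in none of the 11 and in 0.225% of all stretches. A STAT motif, TTCNNNGAA, was in none of the 11 and in 7.02% of all. The cAMP response element TGACGTCA was in the Hhip stretch, from -75 to -68 relative to the start, and in 1.55% of all. These matches are descriptions of the letters in these windows and nothing more.

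**Figure D1:**
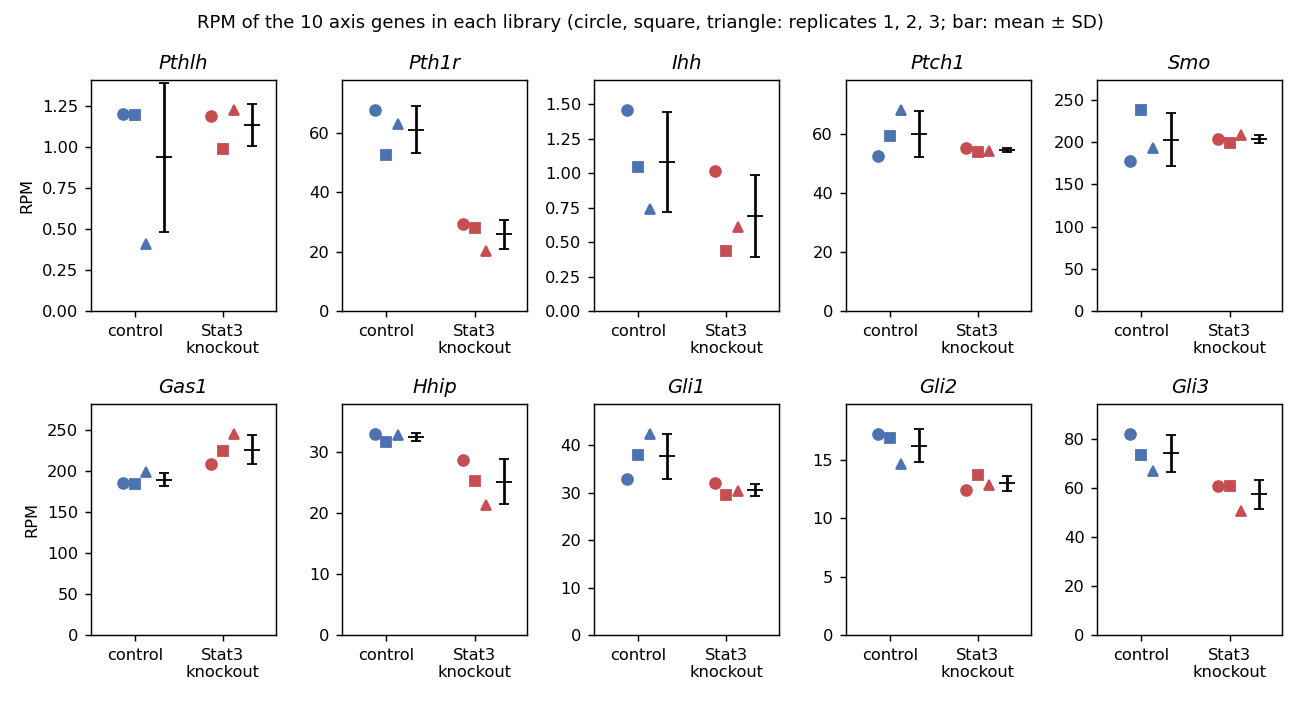
Each panel plots the RPM of 1 gene (vertical axis from 0, with its own scale) in the 3 control and 3 knockout libraries, with the mean and SD as a bar beside the points. Pth1r stands lower in every knockout library (20.1 to 29.4 RPM against 52.6 to 67.8 RPM), whereas Smo, Ptch1, Pthlh and Ihh overlap between groups.

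No change was detectable at this depth for either ligand gene. Pthlh (chromosome 6, 147252101 to 147264183), which encodes PTHrP, had 14, 16 and 5 reads in controls and 14, 9 and 12 in knockouts. These were 1.203, 1.196 and 0.411 RPM against 1.19, 0.986 and 1.23 RPM. Control replicate 3 held the lowest value, and the groups overlapped. The log2 fold change was 0.17 with a 95% interval from -0.34 to 0.67 (limma adjusted p = 0.687), and it turned to -0.05 without control replicate 3. For a gene near 1 RPM, the 1 RPM added before taking logs shrinks both the change and its interval. With 0.1 RPM added instead, the Pthlh change was 0.37 ± 0.45 (SE, limma adjusted p = 0.622), and edgeR gave 0.33. The interval above is therefore no firm bound on the change in Pthlh. Ihh (chromosome 1, 74945315 to 74951672), the Hedgehog ligand of the growth plate, had 17, 14 and 9 reads in controls and 12, 4 and 6 in knockouts. As RPM these were 1.46, 1.05 and 0.739 against 1.02, 0.438 and 0.613. The 2 lowest libraries were knockouts, but knockout replicate 1 lay among the controls, so the groups overlapped (exact two-sided permutation p = 0.2, where 0.1 is the smallest possible). With a mean of 0.886 RPM, Ihh lay under the limit of 1 RPM for testing, and Pthlh, at 1.03 RPM, lay just above it. Counting error alone spans 0.851 to 2.34 RPM for the highest Ihh library and 0.119 to 1.12 RPM for the lowest (exact Clopper-Pearson 95% intervals). Pooled over libraries, 40 of 37193048 control reads and 22 of 30719645 knockout reads were Ihh, at 1.08 (0.768 to 1.46) and 0.716 (0.449 to 1.08) RPM. These reads carry no molecular identifiers, so such intervals cover counting error only.

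Among the genes that receive the Hedgehog signal, Gas1 was higher and Hhip lower in knockouts, and Ptch1 and Smo did not pass. Gas1 (chromosome 13, 60174405 to 60177365) encodes a membrane-anchored co-receptor that binds Hedgehog ligands. It was at 185, 184 and 198 RPM in the controls, and knockouts were at 208, 224 and 244 RPM. All 3 knockouts were above all 3 controls, with the closest libraries 208 and 198 RPM. The means of 189 ± 7.85 and 226 ± 18.0 RPM differed by 0.25 ± 0.08 on the log2 scale (SE, limma adjusted p = 0.0335). This rise kept its direction and passed under TMM scaling (0.31, adjusted p = 0.0137) and with edgeR and DESeq2. It did not pass without control replicate 1 (adjusted p = 0.0958), control replicate 2 (0.127), knockout replicate 2 (0.0911) or knockout replicate 3 (0.133), or with no filter (0.0684) or no variance trend (0.143).

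Hhip (chromosome 8, 79965851 to 80058006) encodes a membrane protein that traps Hedgehog ligands. It was at 32.9, 31.7 and 32.8 RPM in the controls, and knockouts were at 28.7, 25.3 and 21.4 RPM. The controls lay close together and all knockouts were below them. The log2 difference was -0.37 ± 0.12 (SE, limma adjusted p = 0.0331), with means of 32.5 ± 0.661 and 25.1 ± 3.68 RPM (SD, n = 3 each). The call passed in 6 of 18 alternatives. With TMM scaling the difference was -0.31 (adjusted p = 0.0664), after quantile normalization -0.27 (0.114), and median-of-ratios factors gave -0.31 (0.070). The count tests, which change the model as well as the scaling, gave -0.31 with edgeR (0.070) and -0.30 with DESeq2 (0.102). Under the deposited scaling the adjusted p was 0.0762 with no filter and 0.0880 with no variance trend. It was lost without control replicate 1, 2 or 3 (adjusted p = 0.0917, 0.0834 and 0.0672) and without knockout replicate 2 or 3 (0.0797 and 0.148).

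Ptch1 (chromosome 13, 63508328 to 63573598), the Hedgehog receptor and a target of its own pathway, was at 52.3, 59.1 and 68.0 RPM in the controls, and knockouts were at 55.0, 53.8 and 54.2 RPM. The knockout values fell inside the control range. Its log2 difference of -0.13 had an interval from -0.34 to 0.08 (limma adjusted p = 0.412). The difference was -0.22 without control replicate 1 and -0.03 without control replicate 3, and it was -0.07 with TMM scaling. Smo (chromosome 6, 29735503 to 29761365), the signal transducer that Patched inhibits, was at 178, 238 and 193 RPM in the controls, and knockouts were at 204, 199 and 209 RPM. Here too the knockouts lay within the range of the controls, with a log2 difference of 0.02 and an interval from -0.17 to 0.21 (limma adjusted p = 0.920). For Ptch1 and Smo these intervals leave room for changes smaller than that of Pth1r.

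Of the 3 GLI factors, Gli3 passed the test and Gli1 and Gli2 did not, although all had lower values in every knockout library than in any control. Gli3 (chromosome 13, 15463235 to 15730026), whose protein acts mainly as a repressor of Hedgehog targets when ligand is absent, was at 82.0, 73.6 and 67.0 RPM in the controls, and knockouts were at 61.1, 60.8 and 50.8 RPM. The lowest control and the highest knockout were 67.0 and 61.1 RPM. The log2 difference was -0.36 ± 0.10 (SE, limma adjusted p = 0.0165), from 74.2 ± 7.53 to 57.6 ± 5.85 RPM (SD, n = 3 each). Gli3 also passed with TMM scaling (-0.31, adjusted p = 0.0365). It missed the threshold without control replicate 1 (0.0968), control replicate 2 (0.0601) or knockout replicate 3 (0.0761), and with no variance trend (0.0905).

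Gli1 (chromosome 10, 127329882 to 127341974), an activator and the most direct transcriptional readout of Hedgehog signalling, was at 32.8, 38.0 and 42.3 RPM in the controls, and knockouts were at 32.0, 29.5 and 30.4 RPM. The groups came close, with control replicate 1 at 32.8 and knockout replicate 1 at 32.0 RPM. The log2 difference of -0.29 had an interval from -0.51 to -0.06 and did not pass (limma adjusted p = 0.0780). It did pass without control replicate 1 (adjusted p = 0.0429) and with sample weights (0.0449). Gli2 (chromosome 1, 118834132 to 119053619), the main activator of the family, was at 17.2, 16.8 and 14.6 RPM in the controls, and knockouts were at 12.4, 13.7 and 12.9 RPM. Its log2 difference was -0.29 with an interval from -0.56 to -0.03 (limma adjusted p = 0.119). With TMM scaling the intervals of Gli1 and Gli2 reached 0.

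Ratios of 2 genes within a library do not depend on how the library was scaled. In all, 10 such ratios were computed, picked after the values were seen, and none had an adjusted p under 0.2 by the exact two-sided permutation test, whose smallest raw p is 0.1. The log2 ratio of Gli3 to Gli1, a repressor and an activator, was 0.98 ± 0.33 in controls and 0.91 ± 0.15 in knockouts (SD, n = 3 each, exact p = 0.8), so the groups overlapped. Gli1 relative to Ptch1 was -0.66 ± 0.02 in controls and -0.83 ± 0.04 in knockouts (exact p = 0.1), without overlap. In controls, Gli1 and Ptch1 were both lowest in replicate 1 and highest in replicate 3. Hhip relative to Ptch1 overlapped between groups (-0.87 ± 0.19 and -1.12 ± 0.20, exact p = 0.2). Gas1 relative to Ptch1 did not overlap, at 1.67 ± 0.14 in controls and 2.05 ± 0.13 in knockouts (exact p = 0.1). Gas1 was already known to be higher and Ptch1 not to have passed when this pair was picked, so the separation follows from that choice.

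Of the 9 members that were tested, 3 were called lower (Pth1r, Gli3 and Hhip) and 1 higher (Gas1). Over all genes tested, 11.0% were called lower and 5.71% higher, 16.7% in all. Those that fell at least as far as Pth1r were 0.179%. With TMM scaling 2 members were lower and 1 higher, where 7.22% and 8.13% of all genes were (15.4% in all), and edgeR on the recovered reads gave the same counts against 7.18% and 8.19% (15.4% in all). DESeq2 called 2 lower and 1 higher, against 6.03% and 7.77% (13.8% in all). The groups did not overlap for 6 of the 9, against 33.8% of all genes tested. The median log2 difference of the 9 was -0.29, and that of all genes -0.06. With TMM scaling these were -0.23 and -0.01. These counts describe the members and are not a test of the group.

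**Figure D2:**
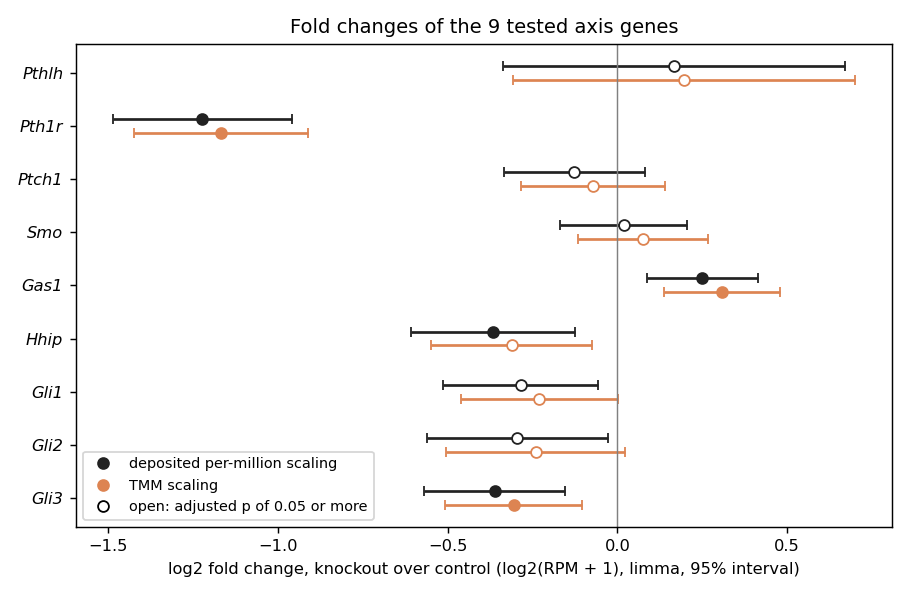
Log2 fold change of knockout over control (horizontal axis) with its 95% interval for the 9 members tested, under the deposited scaling (black) and TMM scaling (orange), where filled points have an adjusted p under 0.05. Pth1r lies apart at -1.22, while Gas1 is above 0 and Gli3 below 0 under both scalings, and Hhip is filled under the deposited scaling alone.

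All 24 other listed genes of the Hedgehog pathway matched an amplicon and 22 were tested, of which 2 were higher and 1 lower. These calls are 13.6% of the list, near the 16.7% over all genes, and the median log2 difference was -0.03, against -0.06 over all genes. Evc, a ciliary membrane protein that works beside Smoothened, was at 57.2 ± 5.70 RPM in the control group and 69.7 ± 4.19 RPM in the knockout group (limma adjusted p = 0.0473). Efcab7, which tethers the Evc complex at the base of the cilium, went from 6.60 ± 1.42 to 9.53 ± 0.291 RPM (0.0411). Csnk1a1, a casein kinase that also serves Wnt signalling, went from 489 ± 21.1 to 407 ± 23.3 RPM (0.0161), and with TMM scaling its adjusted p was 0.0626. Evc missed the threshold without any 1 of 5 libraries, all except control replicate 3 (0.0627 to 0.194), and Efcab7 without any 1 of 5, all except control replicate 1 (0.0695 to 0.178). Csnk1a1 missed it without control replicate 1, control replicate 2 or knockout replicate 1 (0.0557, 0.0833 and 0.0697). Of 18 alternatives in all, 8 ended the call of Csnk1a1 and 7 each those of Evc and Efcab7. The co-receptors Boc (log2 difference 0.04) and Cdon (0.11) and the glypican Gpc3 (-0.02) did not pass. Of the other ligands, Shh had 1 read in all 6 libraries together, and Dhh had 12 to 28 reads per library and did not pass (adjusted p = 0.357).

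Hedgehog signalling runs through the primary cilium, and 1 of 12 cilium transport genes was called, or 8.33% against 16.7% over all genes. This was Kif3a, a motor subunit needed to build the cilium, at 39.2, 40.1 and 34.5 RPM in the controls, with knockouts at 27.6, 29.6 and 22.2 RPM. All knockouts were below all controls, the log2 difference was -0.51 ± 0.12 (SE, limma adjusted p = 0.00490), and the call held in all 18 alternatives. Of the others, Tulp3 (0.02), Wdr35 (-0.07) and Ift88 (0.27) had the highest RPM, by which they were picked, and did not pass. Ift88 passed with median-of-ratios factors, quantile normalization and edgeR (adjusted p = 0.0478, 0.0376 and 0.0448). The median of this list was -0.16 on the log2 scale, against -0.06 over all genes.

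None of the 13 tested Hedgehog response genes was called by limma, with the deposited or TMM scaling, by edgeR or by DESeq2. Over all genes the shares called were 16.7%, 15.4%, 15.4% and 13.8% in that order, at which few of 13 genes would be called. Among the 13, 2 had an unadjusted limma p under 0.05, and the median log2 difference was -0.05, against -0.06 over all genes. Ccnd2, a cyclin, was at 206 ± 7.52 and 186 ± 14.8 RPM and Ccnd1 at 39.3 ± 0.504 and 39.1 ± 9.35 RPM. Osr1, a limb mesenchyme factor, was at 41.0 ± 6.32 and 33.9 ± 1.63 RPM (limma adjusted p = 0.112). Without control replicate 3, Foxd1 was called (adjusted p = 0.0294). The list had 17 genes, of which 16 matched and 3 lay under 1 RPM.

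**Figure D3:**
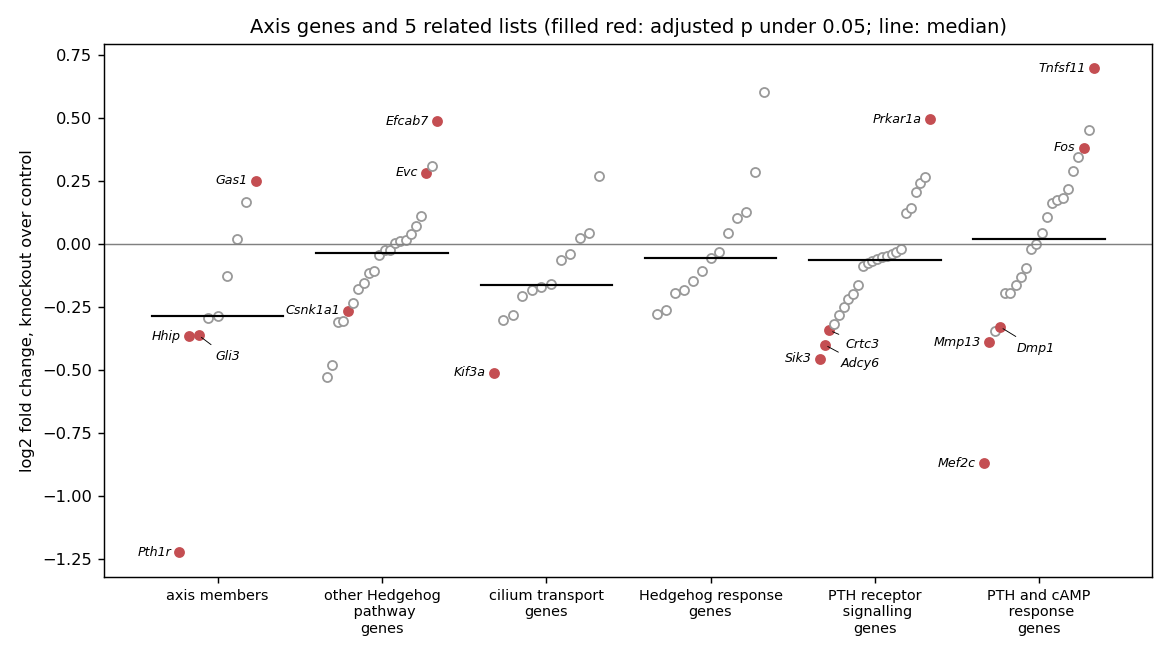
Log2 fold change of knockout over control (vertical axis) for each tested gene of the axis and of 5 related lists, with genes of adjusted p under 0.05 filled and named and each list's median as a line. Pth1r at -1.22 is the lowest point of the 6 columns, and the medians of the 5 related lists lie between -0.16 and 0.02.

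Among genes that carry the PTH receptor signal, 27 of 28 matched, 24 were tested, 1 was higher and 3 were lower. That is 16.7% called, the same share as over all genes, and the median of -0.06 also equals theirs. Prkar1a, the regulatory subunit that holds protein kinase A inactive, was at 640.3, 736 and 721 RPM in the controls, and knockouts were at 962, 1010.5 and 980.2 RPM. All 3 knockouts stood above all controls, with a log2 difference of 0.49 ± 0.07 (SE, limma adjusted p = 6.77e-05), and the call held in all 18 alternatives. The catalytic subunit gene Prkaca was at 592 ± 10.2 and 707 ± 113 RPM and did not pass (0.0599), but did with TMM scaling (0.0214), with the other scalings and count tests, and without knockout replicate 3 (0.00544). Adcy6, an adenylyl cyclase, went from 30.6 ± 2.87 to 22.9 ± 2.14 RPM (0.0206), and missed the threshold without control replicate 1, control replicate 2 or knockout replicate 2 (0.105, 0.0644 and 0.109), and with DESeq2 (0.0577), quantile normalization (0.0764), no filter (0.0514) or no variance trend (0.0618). Sik3, a kinase that PTHrP signalling inhibits in chondrocytes, went from 45.4 ± 3.46 to 33.03 ± 5.16 RPM (0.00901), with 0.0661 without control replicate 2 and 0.0645 with no variance trend. The CREB coactivator Crtc3 went from 40.0 ± 3.57 to 31.3 ± 1.75 RPM (0.0290), which was 0.0668 with TMM scaling and missed the threshold without control replicate 1 or 3 or knockout replicate 2 or 3 (0.0621 to 0.105). In all, 11 of 18 alternatives ended the call of Crtc3. Gna11, a G protein subunit (-0.02), and Hdac5, a histone deacetylase (-0.20), did not pass. Pth had 0 reads in every library, which allows up to 0.224 to 0.329 RPM at 3 reads per library, and Pth2r had 2 to 7 reads.

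Of 25 listed genes known to respond to PTH or cAMP, 22 were tested, and 2 were called higher, 3 lower and 17 neither. The share called was 22.7%, against 16.7% over all genes, and the median was 0.02, against -0.06 over all genes. TMM scaling and edgeR each called 3 higher and 3 lower (15.4% called over all genes). DESeq2 called 4 higher and 3 lower (13.8% over all genes). The list was not split by the direction of each gene's known response, so these counts and the median do not measure that response. Mef2c, a factor of chondrocyte hypertrophy on which PTHrP signalling converges, was at 140, 92.6 and 111 RPM in the controls, and knockouts were at 78.5, 68.9 and 42.7 RPM. The groups did not overlap, and the log2 difference was -0.87 ± 0.16 (SE, limma adjusted p = 5.80e-04). The collagenase gene Mmp13 went from 625 ± 26.1 to 478 ± 38.7 RPM (0.00112) and the matrix gene Dmp1 from 229 ± 7.34 to 183 ± 14.5 RPM (0.00670). Both are also on the lists of hypertrophic cartilage or osteoblast markers. Tnfsf11, which encodes the osteoclast cytokine RANKL and is a classic PTH target, rose from 4.64 ± 0.336 to 8.14 ± 0.655 RPM (0.00460). Fos, an immediate early gene, rose from 35.0 ± 1.62 to 45.8 ± 1.11 RPM (0.0105). The calls of these 5 genes held without each library in turn. With no variance trend the adjusted p was 0.0540 for Mef2c and 0.0723 for Dmp1. Rgs2 (0.17), Sik1 (0.04) and Zfp521 (-0.16), picked as the uncalled genes with the highest RPM, did not pass with limma. Rgs2 did pass with DESeq2 (adjusted p = 0.0446). Sost went from 5.88 ± 0.333 to 8.49 ± 1.40 RPM without overlap and was not called (limma adjusted p = 0.0555). It passed in 7 of 18 alternatives, among them TMM scaling (0.0347), edgeR (0.0303) and DESeq2 (0.0476).

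Pth1r was set beside genes of the cells that are known to express it, osteoblasts and maturing chondrocytes. The hypertrophic channel gene Panx3, with a log2 difference of -1.50, and the bone sialoprotein gene Ibsp, with -1.04, had also fallen (limma adjusted p = 1.53e-10 and 4.00e-10). The log2 ratio of Pth1r to Panx3 was -1.06 ± 0.25 in controls and -0.80 ± 0.19 in knockouts, and that to Ibsp -6.15 ± 0.29 and -6.36 ± 0.34 (SD, n = 3 each). Both ratios overlapped between groups (exact p = 0.3 and 0.5). All partner genes here were picked after the values were seen. Panx3 and Ibsp had falls near that of Pth1r, so the overlap follows from that choice and shows no link between the genes. Relative to Sp7, an osteoblast transcription factor gene, Pth1r was at 2.17 ± 0.33 and 1.75 ± 0.27, again with overlap (exact p = 0.2). Relative to Runx2, which drives both lineages, it was lower in every knockout, at -0.34 ± 0.23 against -0.97 ± 0.21 (exact p = 0.1). The same held relative to Col10a1, the collagen of hypertrophic cartilage, with -0.67 ± 0.26 against -1.74 ± 0.28, and relative to Col1a1, the main bone collagen, with -8.88 ± 0.24 against -10.08 ± 0.39 (exact p = 0.1 each). Neither collagen gene passed the test on its own (log2 differences of -0.18 and -0.06). Runx2 (-0.62) also fell less than Pth1r. The lack of overlap relative to Runx2 and the collagen genes thus follows from the choice of partner too, and adds nothing to the fall of Pth1r itself.

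**Figure D4:**
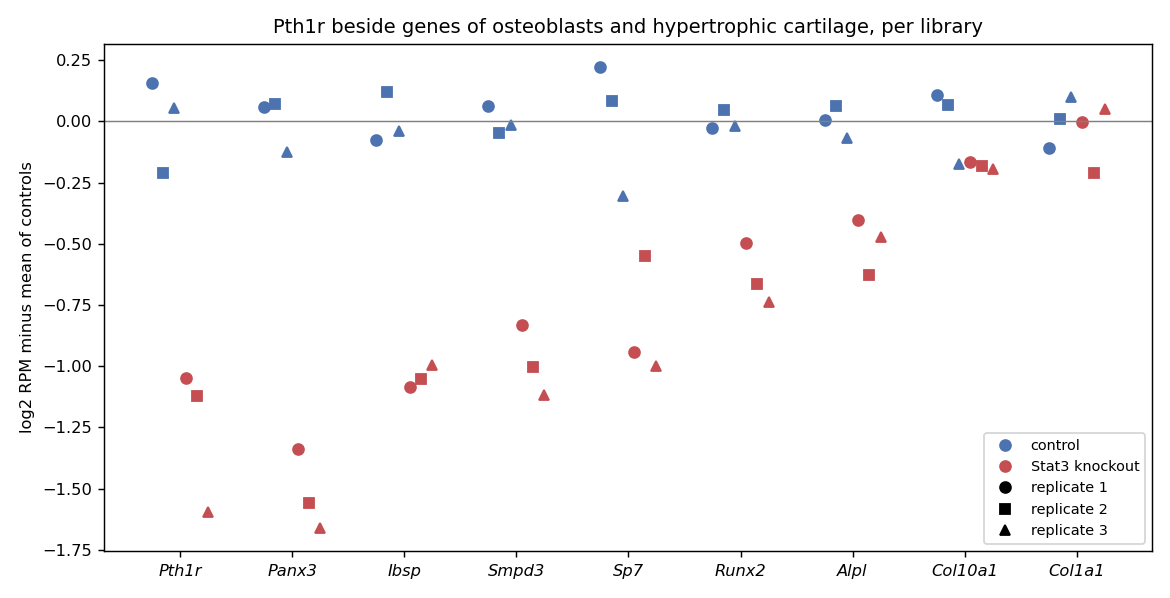
Log2 RPM minus the mean of the 3 controls (vertical axis) for Pth1r and 8 skeletal genes, with 1 point per library (blue, control; red, knockout; shape, replicate). Pth1r lies in the range of Panx3, Ibsp and Smpd3 in the knockouts, whereas Col10a1 and Col1a1 stay near 0.

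The genes whose levels followed Pth1r most closely were sought among 9017 others with a mean of at least 10 RPM. Likeness was the mean absolute gap over the 6 libraries between log2 deviations from each gene's own mean. The closest were S100a9 (gap 0.12), Creb3l1 (0.13) and Hpgd (0.14), against a median gap of 0.58 over all 9017. S100a9 encodes a neutrophil alarmin, Creb3l1 a transcription factor of the secretory pathway in osteoblasts, and Hpgd an enzyme that breaks down prostaglandins. Creb3l1 was at 121, 106 and 88.4 RPM in the controls, and knockouts were at 58.8, 52.6 and 38.5 RPM, so its groups did not overlap. This ranking is a description over 6 libraries in 2 groups, in which any gene with a fall of similar size ranks high.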

How the data were processed

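Gene expression was measured in 3 control and 3 Stat3 knockout samples of mouse humerus shaft. Libraries were made with an Ion AmpliSeq mouse transcriptome panel, per the labels' protocols. No source used here names the aligner, counter or build. RPM values were deposited by the authors, which sum to 1000000 per library. All values above 0 were whole multiples of 1 read within 0.1 read, and reads were recovered from them. Groups and columns follow the sample titles.

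The groups were compared with limma 3.58.1 (R 4.3.3, variance trend) on log2(RPM + 1), for the 12846 amplicons averaging 1 RPM or more, with two-sided Benjamini-Hochberg adjusted p under 0.05. TMM denotes trimmed-mean scaling factors. Alternatives were other pseudocounts, filters, scalings and variance models, sample weights, a replicate block, leaving out each library, and edgeR 4.0.16 and DESeq2 1.42.0 on recovered reads. On simulated counts limma recovered 10% of 1.25-fold, 76% of 1.5-fold and 91.8% of 2-fold changes (12850 genes tested). Of its 147 calls there, 6.80% were false. The simulation gave every gene the same dispersion, a measure of spread between replicates, which real genes need not share. Replicates differed beyond counting noise (chi-square per degree of freedom 4.33 to 7.38). The members and lists were chosen with earlier results of these data known. All 10 members were named, with, from 5 related lists, each called gene and up to 3 abundant others, and the 3 genes most like Pth1r and Ihh. Some further list genes are named where a call depended on the setting or reads were few. Gene positions are from GENCODE M21, promoters from RefSeq. In the table, 27 symbols turned into dates were read back from amplicon names.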

Additional observations from a re-analysis of the deposited data

How the results depend on the processing

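Pth1r kept its direction and call in all 18 alternatives. Gli3 passed in 14 of 18, Gas1 in 12 and Hhip in 6, each with an unchanged direction. Smo, near 0, turned to -0.00053 with quantile normalization and -0.0479 with sample weights, and ranged from -0.0716 to 0.138 without 1 library (below 0 without control replicate 1 or 3). Pthlh ranged from -0.0463 to 0.275 without 1 library, below 0 without control replicate 3. The cause was not tested. Members called higher fell from 1 to 0 with no filter and with no variance trend, and members called lower from 3 to 1 with no variance trend. Leaving out 1 library gave 0 to 1 higher and 1 to 3 lower members, and 1171 to 2029 called genes of 2142 (1230, 1171 and 1321 without control replicate 1, control replicate 2 and knockout replicate 2). All called genes numbered 1392 with no filter and 995 with no variance trend. The higher share of all calls was 34.2% with the deposited scaling, 52.9% with TMM, 55.1% with median-of-ratios factors, 52.7% with quantile normalization, 53.3% with edgeR and 56.3% with DESeq2, and the median of all genes moved by less than 0.1. Of the related lists, other Hedgehog genes had 1 call with no filter and 0 with no variance trend (3 before, 0 to 3 without a library). Cilium genes had 2 with median-of-ratios factors, quantile normalization and edgeR (1 before). Hedgehog response genes had 0 to 1 without a library. PTH receptor signalling genes had 2 with no filter, 1 with no variance trend and 7 with sample weights (4 before, 2 to 4 without a library), and response genes 3 with no variance trend (5 before).

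Whether replicate numbers pair the samples is not known. Same-numbered deviations correlated at 0.01, -0.02 and 0.11, and other pairs at -0.10 to 0.10, which cannot decide it. With a replicate block 2462 genes were called, with 3 lower and 1 higher members, and Prkaca passed (adjusted p = 0.0305). Ihh and Pthlh had 4 to 17 reads per library, so their counting error is large. The reason for these low counts was not tested.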

Other observations

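Among 9018 genes with a mean of at least 10 RPM, those closest to Ihh in their deviations over the 6 libraries were Gne (gap 0.04), Lhfpl2 (0.04) and 6430548M08Rik (0.05), none of which passed the test (limma adjusted p = 0.101, 0.142 and 0.363). Gne, an enzyme of sialic acid synthesis, was at 36.4, 30.5 and 27.2 RPM in the controls, and knockouts were at 29.9, 22.2 and 23.4 RPM. Since Ihh itself rests on 4 to 17 reads per library, this likeness is a description of counts with a large counting error. It also depends on the log2(RPM + 1) scale, which shrinks the deviations of Ihh more than those of these genes. The difference of Ihh in mean log2 value was -0.30 on this scale and -0.60 with 0.1 RPM added instead.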
